A study of Mus musculus with 8 samples.

Results

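The genes described here belong to the FGF and MEK-ERK signalling pathway: the ligand Fgf4, the receptors Fgfr1 and Fgfr2, the MEK genes Map2k1 and Map2k2, the ERK gene Mapk3, and the feedback inhibitors Spry2, Spry4 and Dusp6. They were chosen by symbol, and every probe carrying one of the symbols in the array files was taken. Of the 9 symbols, 8 had a probe, with 16 probes in all among 41174 on the array; Fgf4 was not analysed here. The test took in a probe if all arrays of some group had it well above background, and 11 of the 16 probes, from 6 genes, passed. The array files carry 27961 gene names in all.

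FGF ligands bind receptor tyrosine kinases at the cell surface, which signal through adaptors, RAS and RAF to the kinases MEK and then ERK. ERK enters the nucleus and drives transcription, including that of Sprouty proteins and dual-specificity phosphatases that dampen the same signal. In mouse embryonic stem (ES) cells, autocrine FGF4 acting through ERK favours exit from the naive pluripotent state, and culture in 2i blocks this route at MEK.

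The study used RNA immunoprecipitation (IP) to ask which RNAs the germ-cell RNA-binding protein DAZL binds. All 8 samples came from 1 mouse ES line, Dazl-GFP, kept on irradiated fibroblast feeders in medium with 15% serum, LIF and 2i (1 µM of the MEK inhibitor PD0325901 and 3 µM of the GSK3β inhibitor CHIR99021). There were 3 input samples without antibody, 3 IPs with an antibody against GFP and 2 IPs with an antibody against PABP1, the protein that coats poly(A) tails; the lysates were not crosslinked. Neither a culture free of MEK inhibitor nor a mock IP was analysed here, so the values compare RNA samples of cells in 2i and not states of the pathway. The labels do not say whether GFP is fused to DAZL in this line, or whether replicate arrays stem from separate cultures; p-values therefore cover only sample-to-sample spread, and that spread may be technical.

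Each value is the log2 signal of a probe relative to the 75th percentile of its array, so a difference compares an RNA's share of 2 samples. Arrays correlated at 0.973 to 0.992 within groups and 0.843 to 0.921 between groups, and 41.5% to 52.6% of spots were well above background. The 8 arrays lay on 2 slides of 4, and each slide held all 3 groups. Dazl itself was higher in the GFP IP than in input by 3.81 ± 0.21 (SE; limma, adjusted p = 2.1e-05). The 8 ES cell markers tested had summed linear signals of 471 to 516 in input, 540 to 544 in the PABP1 IP and 561 to 620 in the GFP IP. The brightest weigh most in this sum, and single markers went both ways. In the GFP IP over input 5 were higher and 1 lower, where 21.1% and 43.2% of all genes were. In the PABP1 IP over input 4 were higher and 1 lower (34.1% and 25.3% of all genes). Between the IPs 4 were higher with GFP and 3 lower (23.6% and 47.3%). The 15 feeder fibroblast markers summed to 278 to 386 in input, 443 to 444 in the PABP1 IP and 125 to 183 in the GFP IP. In the GFP IP, 11 of 15 were lower than in input and 4 without a call, where 43.2% of all genes were lower. Against the PABP1 IP, 13 of 15 were lower in the GFP IP and 1 higher, where 47.3% and 23.6% of all genes were. In the PABP1 IP over input, 5 were higher, 2 lower and 8 without a call, where 34.1% of all genes were higher and 25.3% lower. The summed feeder marker signal was thus lowest in the GFP IP and highest in the PABP1 IP. Map2k2 and the Mapk3 means below had this order, while Map2k1 and the brighter Fgfr1 and Spry2 probes were highest in the GFP IP. The part of feeder RNA in these values was not tested. Signals are shares of the RNA in a sample, so fewer cells of a type, less RNA per cell and a smaller share taken by an IP cannot be told apart.

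In the GFP IP, Fgfr1, Map2k1 and one of the probes for Spry2 were higher than in input. Map2k2 was lower there, but at −0.60 it lay near the median of all tested probes, −0.38. Its call was lost in 7 of 22 alternatives. In the PABP1 IP, both MEK genes, Mapk3, Fgfr1 by its brighter probes and the same Spry2 probe were higher than in input. This Spry2 call was lost in 12 of 21 alternatives. Between the IPs, Fgfr1 was higher with GFP, Mapk3 and Map2k2 were higher with PABP1, and Map2k1 did not pass the test. Counted by probe, 5 of the 11 were higher and 1 lower in the GFP IP than in input, where 24.2% of all 20622 tested probes were higher and 39.1% lower. For the PABP1 IP over input 7 were higher and 1 lower, against 34.5% and 25.9% of all probes. For the GFP IP over the PABP1 IP 4 were higher and 3 lower, against 26.6% and 43.7%. The median log2 difference of all tested probes in these 3 comparisons was −0.38, 0.22 and −0.52. The counts describe probes that passed a filter on signal, and several share a gene. The 4 higher between the IPs were the Fgfr1 probes, and the fourth of these was tested only through the GFP IP, its highest group. It was also the 1 probe lower in the PABP1 IP than in input. With only probes well above background on all arrays, the counts were 3 and 3 between the IPs and 7 and 0 for the PABP1 IP over input. The 2 comparisons against input share their input arrays.

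**Figure D1:**
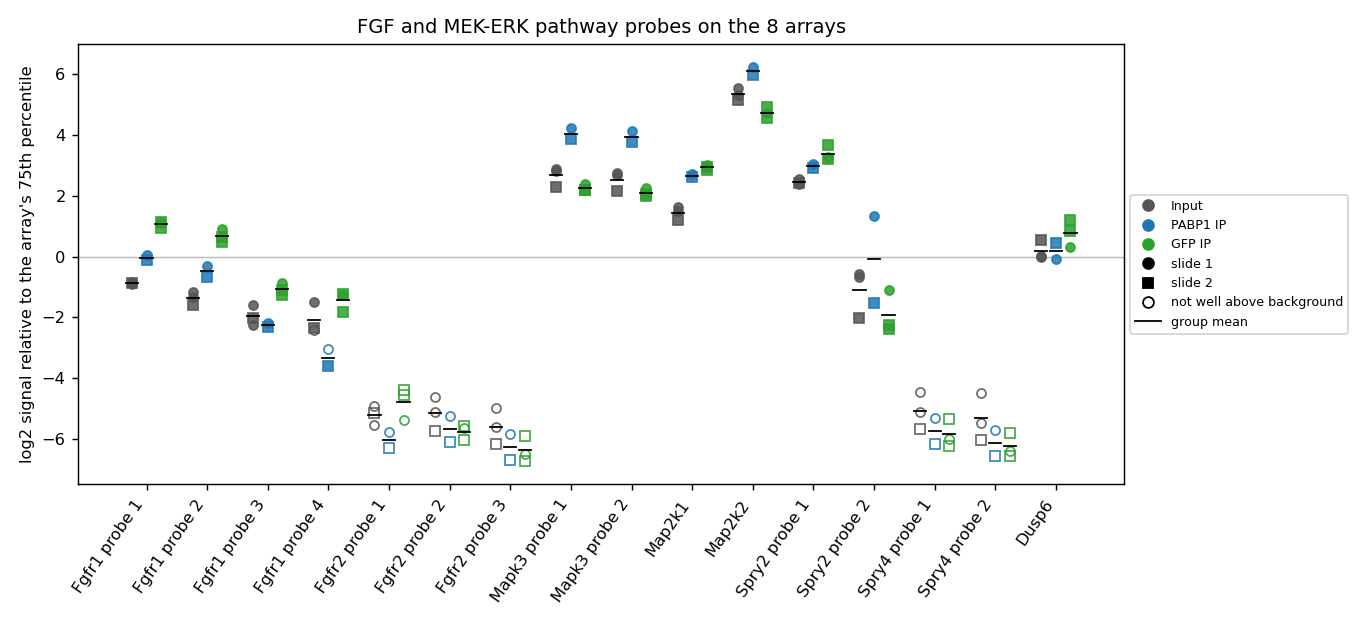
Log2 signal relative to the array's 75th percentile (y axis) for the 16 probes of 8 pathway genes (x axis), with 1 point per array; colour gives the group, shape the slide, open points probes not well above background, and black lines the group means. The 3 Fgfr2 and 2 Spry4 probes lie at the bottom, open on all 8 arrays, while the Map2k2 and Mapk3 points are highest in the PABP1 IP.

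Fgfr1 encodes the FGF receptor that predominates in mouse ES cells, and 4 probes carried its name. The brightest (probe 1, A_52_P668810) read −0.89, −0.83 and −0.88 in the 3 inputs, 0.05 and −0.11 in the 2 PABP1 IPs, and 0.95, 1.10 and 1.13 in the 3 GFP IPs. The inputs were lowest, the GFP IPs highest, and no 2 groups overlapped. Its signal was 3.81-fold higher in the GFP IP than in input, a log2 difference of 1.93 ± 0.11 (SE; adjusted p = 2.4e-05), which placed it at the 93.9th percentile of all tested probes. It was higher by 0.84 ± 0.13 in the PABP1 IP than in input (adjusted p = 0.0010), and by 1.09 ± 0.13 in the GFP IP than in the PABP1 IP (adjusted p = 0.00022). With the slide as a block these differences were 1.95, 0.85 and 1.11, and within each slide the GFP IP stood 1.96 and 1.93 above input. The PABP1 difference was 0.77 within slide 2 with an adjusted p of 0.051. Over all alternatives the GFP IP over input was 1.00 to 2.46 and passed in each (adjusted p = 5.0e-07 to 0.037). The lowest value came under normexp, a model-based background correction that was run with an offset of 50. The 75th percentile of the input arrays was 63.6 to 111 on the linear scale of the main values, and the part of the offset was not tested. Normexp also ended the calls of the PABP1 IP over input (0.34, adjusted p = 0.48) and between the IPs (0.66, adjusted p = 0.10).

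The second Fgfr1 probe (A_51_P109469), printed in 10 spots per array, read −1.34, −1.17 and −1.60 in input, −0.29 and −0.66 in the PABP1 IP, and 0.47, 0.89 and 0.65 in the GFP IP. The groups again did not overlap and kept the same order. It stood 2.04 ± 0.18 above input in the GFP IP and 0.89 ± 0.20 in the PABP1 IP, and the IPs differed by 1.15 ± 0.20 (adjusted p = 9.9e-05, 0.0070 and 0.0018). The SD between its 10 spots was 0.077 to 0.171 on an array, which is printing and reading noise only and not the spread between samples. Without PABP1 IP replicate 1, the PABP1 difference was 0.71 with an adjusted p of 0.056.

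The other two Fgfr1 probes were dimmer and gave other values for the IPs over input. The third (A_52_P136162) read −2.26, −1.60 and −2.01 in input, −2.20 and −2.33 in the PABP1 IP, and −1.26, −0.87 and −1.11 in the GFP IP. The GFP IPs lay above all other arrays, and the PABP1 IPs overlapped the inputs. The GFP IP over input was 0.88 ± 0.20 (adjusted p = 0.0063; 1.06 with 0.067 within slide 1), the PABP1 IP over input −0.31 ± 0.22 (adjusted p = 0.26), and the GFP IP over the PABP1 IP 1.18 ± 0.22 (adjusted p = 0.0022). The fourth probe (A_52_P552062) was well above background on 2 of 3 inputs, 1 of 2 PABP1 IPs and 3 of 3 GFP IPs, so it entered the test through the GFP IP, its highest group.

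That probe read −2.43, −1.50 and −2.34 in input, −3.05 and −3.60 in the PABP1 IP, and −1.84, −1.26 and −1.22 in the GFP IP. Both PABP1 IPs lay under every other array, while the GFP IPs overlapped the inputs. It was lower in the PABP1 IP than in input by 1.24 ± 0.35 on the log2 scale (adjusted p = 0.017), while the GFP IP over input, 0.65 ± 0.31, did not pass (adjusted p = 0.10). The GFP IP stood 1.89 ± 0.35 above the PABP1 IP; because the probe was tested through the GFP IP and 1 of the 2 PABP1 arrays was not well above background, this value is a description only. The PABP1 call was lost within slide 1 (adjusted p = 0.11) and without PABP1 IP replicate 2 (0.11). The GFP difference over input was 0.78 with the slide as a block (adjusted p = 0.044), and the filter, passed through the GFP IP alone, favours this p-value.

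The disagreement between Fgfr1 probes was itself tested, as the difference between each dimmer probe and the brightest one within an array. For the GFP IP over input, the third probe gave 1.05 ± 0.19 less than the brightest (a difference of −1.05, adjusted p = 0.0040) and the fourth 1.28 ± 0.28 less (−1.28, adjusted p = 0.0088). For the PABP1 IP over input the same differences were −1.14 ± 0.21 (adjusted p = 0.0045) and −2.07 ± 0.31 (adjusted p = 0.0017). For the GFP IP over the PABP1 IP they were 0.09 ± 0.21 and 0.80 ± 0.31 and did not pass (adjusted p = 0.82 and 0.092). With the slide as a block, the difference between the IPs was 0.85 for the fourth probe and 0.11 for the third (adjusted p = 0.69 for the third). The fourth probe was tested through the GFP IP, its highest group, and the filter favours a positive difference between the IPs. Its values between the IPs are thus a description only. Its differences against input rest in part on arrays where it was dim, which does not hold for the third probe. The called differences from the brightest probe against input were lost within slide 1, with 4 arrays (adjusted p = 0.062 to 0.16), and passed within slide 2 (adjusted p = 0.021 to 0.048). Thus the 3 Fgfr1 probes well above background on all arrays were higher in the GFP IP than in the PABP1 IP, by 1.09 to 1.18, while the size against input depended on the probe. Among all 5865 such pairs on the array, 42.4%, 44.1% and 34.6% differed in the 3 comparisons. Which transcript region each probe reads was not analysed here.

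Fgfr2 encodes a second FGF receptor, expressed in the primitive endoderm lineage of the early embryo. Its 3 probes were well above background on 0 of 8 arrays, with signals of −6.73 to −4.40, and no difference was computed. No group can be ordered against another for Fgfr2 from these probes.

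**Figure D2:**
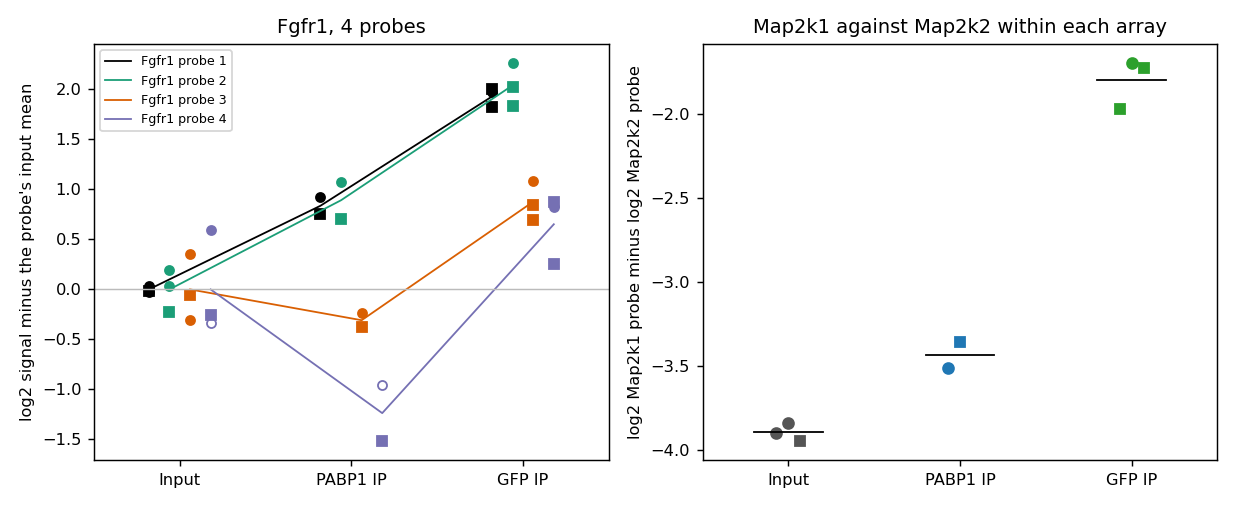
Left, log2 signal of the 4 Fgfr1 probes minus each probe's own input mean (y axis) in the 3 groups (x axis), 1 point per array, open where not well above background, circles for slide 1 and squares for slide 2, with lines joining group means. Right, the log2 Map2k1 signal minus the log2 Map2k2 signal on each array, with black lines for group means; the mean of each Fgfr1 probe lies higher in the GFP IP than in the PABP1 IP, and the Map2k1 to Map2k2 difference is highest on the 3 GFP IP arrays.

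Map2k1 and Map2k2 encode MEK1 and MEK2, the kinases that phosphorylate ERK and the targets of the inhibitor in the medium. Each gene had 1 probe. The Map2k1 probe read 1.64, 1.49 and 1.21 in input, 2.72 and 2.61 in the PABP1 IP, and 2.96, 3.02 and 2.85 in the GFP IP. Every IP array lay above every input array, and the 2 kinds of IP lay close together without overlapping. Map2k1 was 2.82-fold higher in the GFP IP than in input (log2 1.50 ± 0.14, adjusted p = 0.00013) and 2.33-fold higher in the PABP1 IP than in input (1.22 ± 0.16, adjusted p = 0.00050). Between the IPs the difference was 0.28 ± 0.16 (adjusted p = 0.16); it passed with the slide as a block (0.31, adjusted p = 0.039) and under scaling to the median of all spots (0.73, adjusted p = 0.0078). Within slides 1 and 2, Map2k1 was 1.45 and 1.70 higher in the GFP IP than in input, and 1.15 and 1.41 higher in the PABP1 IP. Over all alternatives the GFP IP over input was 1.21 to 2.09, highest in the authors' deposited table, and the PABP1 IP over input was 0.98 to 1.41. Both calls were lost under normexp alone (1.21 and 1.27, adjusted p = 0.079 and 0.078).

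Map2k2 read 5.54, 5.33 and 5.15 in input, 6.23 and 5.97 in the PABP1 IP, and 4.93, 4.71 and 4.57 in the GFP IP. The order of the groups differed from that of Map2k1: the GFP IPs were lowest, the inputs in between and the PABP1 IPs highest, with no overlap. Map2k2 was higher in the PABP1 IP than in input by 0.76 ± 0.18 (1.70-fold, adjusted p = 0.0082) and lower in the GFP IP than in the PABP1 IP, with a log2 difference of −1.36 ± 0.18 (adjusted p = 0.00041). Its difference between the GFP IP and input was −0.60 ± 0.16 (adjusted p = 0.014). This lay at the 42nd percentile of all tested probes, whose median was −0.38. The drop against the PABP1 IP passed within both slides (−1.51 and −1.22), whereas the drop against input was −0.72 within slide 1 (adjusted p = 0.047) and −0.40 within slide 2 (adjusted p = 0.22). Over all alternatives the drop against the PABP1 IP was −1.75 to −0.51 and passed wherever it was tested (adjusted p = 0.00014 to 0.033). The value against input was −0.72 to 0.02, highest in the authors' deposited table. It was −0.064 under scaling to the array median (adjusted p = 0.79) and −0.30 under quantile normalization (adjusted p = 0.073). Its call was also lost without GFP IP replicate 3 (adjusted p = 0.055), and in 7 of 22 alternatives in all. The PABP1 IP over input was 0.20 under quantile normalization (adjusted p = 0.25) and missed the threshold within slide 2 (0.82, adjusted p = 0.068) and without PABP1 IP replicate 1 (0.63, adjusted p = 0.062).

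The Map2k1 and Map2k2 probes can be set against each other within an array, where any scaling that multiplies all probes alike cancels; this comparison was chosen after the values were seen. The log2 Map2k1 minus Map2k2 signal was −3.90, −3.84 and −3.94 in input, −3.51 and −3.36 in the PABP1 IP, and −1.97, −1.70 and −1.72 in the GFP IP. The 3 GFP IPs lay above the other 5 arrays by more than the spread of any group. From input to the GFP IP the ratio of Map2k1 to Map2k2 signal rose 4.27-fold (a log2 change of 2.10), and from input to the PABP1 IP 1.38-fold (0.46). An exact two-sided permutation test gave p = 0.10 for both, the smallest that 3 against 3 or 3 against 2 arrays can give. The change shows that the signals of the pair moved unequally, not which of them stayed constant.

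Mapk3 encodes ERK1, a kinase phosphorylated by MEK. Its brighter probe (A_52_P243249) read 2.89, 2.83 and 2.30 in input, 4.24 and 3.86 in the PABP1 IP, and 2.20, 2.40 and 2.18 in the GFP IP. The PABP1 IPs stood above all other arrays, and the GFP IPs overlapped the inputs. Mapk3 was 2.60-fold higher in the PABP1 IP than in input (log2 1.38 ± 0.22, adjusted p = 0.0013) and differed by −1.79 ± 0.22 between the GFP IP and the PABP1 IP (adjusted p = 0.00029). The second probe (A_51_P158628, 10 spots) gave 1.41 ± 0.22 and −1.84 ± 0.22 (adjusted p = 0.0012 and 0.00025), and the difference between the probes was −0.04 to 0.03 in the 3 comparisons.

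The GFP IP over input was −0.41 ± 0.20 and −0.43 ± 0.20 for the Mapk3 probes and did not pass (adjusted p = 0.10 and 0.091). It passed with the slide as a block (−0.28 and −0.30, adjusted p = 0.042 and 0.029) and without input replicate 3 (−0.60 and −0.61, adjusted p = 0.019 for both), and it was 0.12 and 0.10 under scaling to the array median. The PABP1 IP over input, by contrast, was 1.39 and 1.56 within slides 1 and 2 for the brighter probe, and the GFP IP over the PABP1 IP −1.84 and −1.67. Over all alternatives and both probes these were 1.10 to 1.59 and −2.02 to −1.19, and they passed in each (highest adjusted p = 0.032 and 0.0082).

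**Figure D3:**
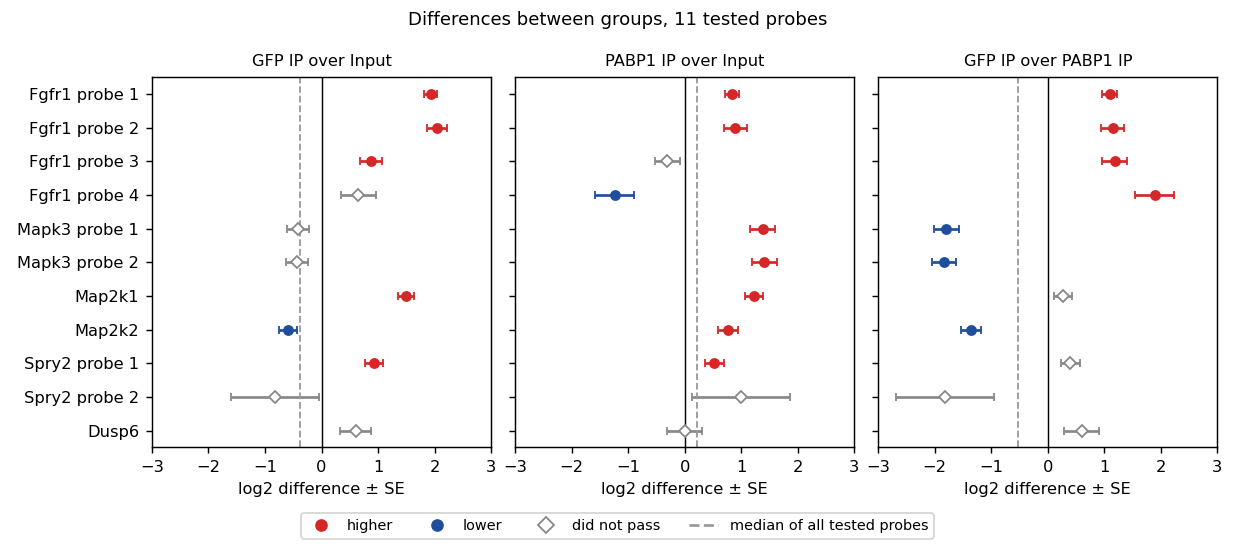
Log2 differences with limma's standard error (x axis) for the 11 tested probes (y axis) in the GFP IP over input, the PABP1 IP over input and the GFP IP over the PABP1 IP; red marks higher and blue lower at an adjusted p under 0.05, open grey diamonds did not pass, and the dashed line is the median of all tested probes. The Fgfr1 probes lie right of zero in the last panel and the Mapk3 and Map2k2 probes left of it.

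Spry2 and Spry4 encode Sprouty proteins, which restrain receptor tyrosine kinase signalling upstream of ERK. The brighter Spry2 probe (A_52_P368532), designed on an expressed sequence tag whose place in the Spry2 transcript was not analysed here, read 2.56, 2.39 and 2.41 in input, 3.05 and 2.91 in the PABP1 IP, and 3.67, 3.27 and 3.20 in the GFP IP. The 3 groups did not overlap and followed the order seen for the brighter Fgfr1 probes. It was 1.90-fold higher in the GFP IP than in input (log2 0.92 ± 0.16, adjusted p = 0.0017) and 1.44-fold higher in the PABP1 IP (0.53 ± 0.17, adjusted p = 0.033). Between the IPs it differed by 0.40 ± 0.17 (adjusted p = 0.074). Within slides the GFP IP over input was 0.79 and 1.02, and both passed. The PABP1 call was lost within each slide (0.57 and 0.50, adjusted p = 0.072 and 0.24) and without any 1 of input replicates 2 and 3 and PABP1 IP replicates 1 and 2 (0.46 to 0.59, adjusted p = 0.070 to 0.15), and over all alternatives it was 0.29 to 0.72 (adjusted p = 0.015 to 0.40). In all, 12 of 21 alternatives lost the PABP1 call. Among them were median scaling (adjusted p = 0.072), the percentile of detected spots (0.14), quantile normalization (0.099), no filter (0.13) and normexp (0.40). The GFP IP over input was 0.74 to 1.46 over all alternatives, and its call was lost under normexp (adjusted p = 0.35). Between the IPs the value reached 0.86 under median scaling and passed (adjusted p = 0.018).

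The other Spry2 probe (A_51_P445153), designed on the curated transcript, gave no call in any comparison of the main fit. It read −0.68, −0.57 and −2.02 in input, 1.35 and −1.52 in the PABP1 IP, and −2.37, −1.11 and −2.25 in the GFP IP. The groups overlapped, and within each group the arrays of slide 1 were higher than those of slide 2. Its differences were −0.82 ± 0.78, 1.00 ± 0.87 and −1.82 ± 0.87 (adjusted p = 0.38, 0.36 and 0.095). With the slide as a block they were −0.25, 1.29 and −1.54 (adjusted p = 0.52, 0.017 and 0.0072). Within slides 1 and 2 the PABP1 IP over input was 1.97 and 0.50, and the difference between the IPs −2.46 and −0.79. With array weights, a fit that stopped short of convergence, the GFP IP over input was −1.54 and passed (adjusted p = 0.0085). The Spry2 probes differed from each other by −1.75 ± 0.78, 0.48 ± 0.87 and −2.22 ± 0.87 in the 3 comparisons, none of which passed (adjusted p = 0.11, 0.70 and 0.092). With the slide as a block these were −1.17, 0.76 and −1.94, and the first and the last passed (adjusted p = 0.027, 0.12 and 0.0060). The authors' deposited table has 1 Spry2 row, for the curated transcript, with log2 ratios of −0.18, 1.46 and −1.64 in the 3 comparisons. The 2 Spry4 probes were well above background on 0 of 8 arrays, at −6.58 to −4.45.

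Dusp6 encodes the cytoplasmic phosphatase that dephosphorylates ERK, and its transcription depends on ERK activity. Its only probe read 0.02, −0.01 and 0.56 in input, −0.08 and 0.46 in the PABP1 IP, and 1.20, 0.32 and 0.85 in the GFP IP. In each group the arrays of slide 2 were higher than those of slide 1, and the groups overlapped. The GFP IP over input was 0.60 ± 0.28, the PABP1 IP over input 0.00 ± 0.31 and the GFP IP over the PABP1 IP 0.60 ± 0.31, and none passed (adjusted p = 0.097, 0.998 and 0.12). With the slide as a block, the differences of the GFP IP from input and from the PABP1 IP were 0.40 and 0.50 and passed (adjusted p = 0.020 and 0.010). Within slides they were 0.32 and 0.46 over input and 0.40 and 0.57 over the PABP1 IP, without a call. Leaving out GFP IP replicate 2 gave 0.84 and 0.83 (adjusted p = 0.032 and 0.039), and median scaling gave 1.14 over input (adjusted p = 0.044). Over all alternatives the values were 0.32 to 1.19 over input, highest in the authors' deposited table, and 0.28 to 1.20 between the IPs.

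Genes whose brightest probe followed each member most closely over the 8 arrays were sought among 9778 others. Rnf138 and Bcap31 were nearest to Fgfr1 (Pearson's r of 0.997 for both), Eef1e1 and Ccdc115 to Map2k1 (0.996 for both), and 1700063H04Rik and Smtnl1 to Map2k2 (0.997 for both). Sox15 and Mcfd2 were nearest to Mapk3 (0.998 for both), Arf6 and Mrfap1 to Spry2 (0.986 and 0.981), and Aldh3a2 and Fto to Dusp6 (0.976 and 0.972). These values describe 8 arrays that share 3 groups and 2 slides, and the highest of many correlations is high by selection.

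The rest of the pathway was described from a list of 82 names in 7 roles, without the members; 77 were on the array and 63 were tested, each by its brightest probe. In the GFP IP over input 29 were higher and 8 lower, where 21.1% of all 14757 genes were higher and 43.2% lower, and their median difference was 0.43 against −0.51 for all genes. In the PABP1 IP over input 23 were higher and 17 lower (34.1% and 25.3% of all genes), with medians of 0.19 and 0.24. In the GFP IP over the PABP1 IP 29 were higher and 15 lower (23.6% and 47.3%), with medians of 0.39 and −0.67. Under scaling to the array median the GFP IP over input gave 40 higher and 5 lower, and under normexp background correction 7 and 1. Between the IPs these counts were 35 and 10, and 7 and 5. For the PABP1 IP over input they were 23 and 12, and 5 and 1. Across all probes called for the GFP IP over input, 38.2% were higher in the main scaling and 64.3% under median scaling; between the IPs the share was 37.8% in the main scaling and 29.6% to 58.6% under the others, and for the PABP1 IP over input 57.1% in the main scaling and 47.6% to 70.7% under the others, so the majority turned with the scaling in all 3 comparisons.

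Adaptors and RAS regulators carry the signal from the receptor to RAS or switch RAS off. All 11 tested were higher in the GFP IP than in the PABP1 IP, with a median of 1.51. Of all genes, 23.6% were higher there and 47.3% lower. Among the 11, 1 entered the test only through the GFP IP, its highest group. Under normexp, 7 genes of the whole list were higher between the IPs, so not all 11 kept the call. Against input, 7 were higher and 1 lower in the GFP IP, and 2 higher and 7 lower in the PABP1 IP. The shares of all genes were 21.1% and 43.2%, and 34.1% and 25.3%. Gab1, a docking protein, was 2.86 ± 0.17 higher in the GFP IP than in input (adjusted p = 2.4e-05). Frs3, an FGF receptor substrate, was highest of the group in the PABP1 IP over input at 1.56 ± 0.24 (adjusted p = 0.0012). Nf1, which switches RAS off, was lower in both IPs than in input, with −1.27 ± 0.13 for GFP and −3.37 ± 0.14 for PABP1 (adjusted p = 0.00015 and 1.4e-05), and its second probe gave −0.23 and −1.65; the brightest was well above background on 1 of 2 PABP1 IPs. Rasa1, which acts like Nf1, was 2.37 ± 0.38 higher in the GFP IP than in the PABP1 IP (adjusted p = 0.0010) and was well above background on 1 of 2 PABP1 IPs. Nf1 and Rasa1 were tested through input and the GFP IP, where they were higher. The filter thus favours their p-values against the PABP1 IP.

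Among 10 receptors and co-receptors, 5 were higher and 2 lower in the GFP IP than in input, 2 and 2 in the PABP1 IP, and 5 and 1 between the IPs. For all genes these were 21.1% and 43.2%, 34.1% and 25.3%, and 23.6% and 47.3%. Hs2st1, which sulfates the heparan chains that FGFs need, was 2.79 ± 0.13 and 1.34 ± 0.14 higher in the GFP and PABP1 IPs than in input (adjusted p = 1.5e-05 and 0.00019); its second probe gave 2.25 and 0.44. The heparan sulfate carrier Gpc4 was 2.50 ± 0.12 higher in the GFP IP than in the PABP1 IP (adjusted p = 1.2e-05). Fgfr4 was lower there, at −0.90 ± 0.13 (adjusted p = 0.00058). The heparan-chain polymerase gene Ext2 was the lowest called in the GFP IP over input at −0.83 ± 0.21 (adjusted p = 0.011), and the glypican Gpc3 in the PABP1 IP over input at −1.67 ± 0.58 (adjusted p = 0.040). Of 13 ligands 6 were tested. The ligand Fgf10 was not well above background on any input or PABP1 array. Set against the lowest signal of any probe well above background on those arrays, it was 2.22-fold higher in the GFP IP than in input. Against the PABP1 IP this bound was 3.49-fold, and neither bound was tested. Its limma differences of 2.13 and 2.24 rest on arrays where it was dim. It entered the test only through the GFP IP, its highest group, and the filter favours its calls, so these values are a description only. Fgf17 was 1.33 ± 0.24 higher in the PABP1 IP than in input (adjusted p = 0.0025) and differed by −1.79 ± 0.24 between the IPs (adjusted p = 0.00046).

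Of 9 RAS and RAF genes tested, 2 were higher and 2 lower in the GFP IP over input, 3 and 3 in the PABP1 IP over input, and 3 and 5 between the IPs. The shares of all genes given above were 21.1% and 43.2%, 34.1% and 25.3%, and 23.6% and 47.3%. Eras, a RAS gene of ES cells, was 2.38 ± 0.14 higher in the PABP1 IP than in input (adjusted p = 2.4e-05) and differed by −2.28 ± 0.14 between the GFP and PABP1 IPs (adjusted p = 1.7e-05). Ksr1, a scaffold of the kinase cascade, was lower in the GFP IP than in input at −1.28 ± 0.13 (adjusted p = 0.00018). For the RAS gene Nras the probes opposed each other, with 1.83 ± 0.21 and −0.28 in the GFP IP over input and a difference between probes at an adjusted p of 0.00020. For Braf, a RAF kinase, they opposed each other between the IPs, at 2.02 ± 0.25 for the brightest probe (adjusted p = 0.00027) and −0.57 and −0.67 for the others. Its PABP1 IP over input was −1.31 ± 0.25 (adjusted p = 0.0028) by the brightest probe and 0.05 and 0.87 by the others. That brightest probe was well above background on 1 of 2 PABP1 arrays. It was tested through input and the GFP IP, where it was higher, so the filter favours both p-values.

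Of 8 other kinases, scaffolds and substrates, 2 were higher and 1 lower in the GFP IP over input, 3 and 1 in the PABP1 IP over input, and 0 and 2 between the IPs. For all genes these were 21.1% and 43.2%, 34.1% and 25.3%, and 23.6% and 47.3%. Map2k1ip1, a MEK scaffold gene, was 1.51 ± 0.21 higher in the PABP1 IP than in input (adjusted p = 0.00064). Pebp1, an inhibitor of RAF, differed by −1.57 ± 0.21 between the GFP and PABP1 IPs (adjusted p = 0.00042). The brightest probe of Rps6ka1, an ERK substrate kinase, was lower in both IPs than in input, at −1.48 ± 0.14 and −1.66 ± 0.16 (adjusted p = 0.00014 and 0.00012), and its second probe gave −0.58 and 0.35.

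Of 9 feedback inhibitors tested, 5 were higher and 1 lower in the GFP IP over input, 4 and 2 in the PABP1 IP over input, and 4 and 4 between the IPs. For all genes these were 21.1% and 43.2%, 34.1% and 25.3%, and 23.6% and 47.3%. Dusp1, a nuclear phosphatase of ERK and related kinases, was 2.69 ± 0.25 higher in the GFP IP than in input (adjusted p = 0.00012), and Dusp9, a phosphatase of ERK, was lower at −0.61 ± 0.15 by its brightest probe (adjusted p = 0.0099), while its second gave 0.27. Spry1, a relative of Spry2, was 2.05 ± 0.19 higher in the PABP1 IP than in input (adjusted p = 0.00011). Spred1, a Sprouty-related inhibitor, was lower there at −1.66 ± 0.23 (adjusted p = 0.00068) and 2.60 ± 0.23 higher in the GFP IP than in the PABP1 IP (adjusted p = 6.3e-05). Dusp4, another phosphatase of ERK, differed by −1.37 ± 0.31 between the IPs by its brightest probe (adjusted p = 0.0057) and by 0.17 by its second, and the probes differed (adjusted p = 0.037).

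Of 10 transcription factors and targets, 6 were higher and 1 lower in the GFP IP over input, 7 and 2 in the PABP1 IP over input, and 4 and 1 between the IPs. For all genes these were 21.1% and 43.2%, 34.1% and 25.3%, and 23.6% and 47.3%. Etv5, an ETS factor induced by FGF signalling, was 2.81 ± 0.18 higher in the GFP IP than in input by its brightest probe (adjusted p = 3.4e-05) and 0.97 by its second. Ccnd1, which encodes cyclin D1, was 2.75 ± 0.23 higher in the GFP IP than in the PABP1 IP (adjusted p = 4.9e-05). Fosl1, a FOS-related factor, was lower in the GFP IP than in input (−1.32 ± 0.34, adjusted p = 0.012) and than in the PABP1 IP (−2.34 ± 0.38, adjusted p = 0.0011), and was well above background on 1 of 3 GFP IPs. It was tested through input and the PABP1 IP, where it was higher, so the filter favours these p-values. Fos, one of the 7 higher in the PABP1 IP, was well above background on no input array and 1 of 2 PABP1 arrays, so no fold is given. Etv1, another ETS factor, was lower in the PABP1 IP than in input at −1.06 ± 0.20 (adjusted p = 0.0026).

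**Figure D4:**
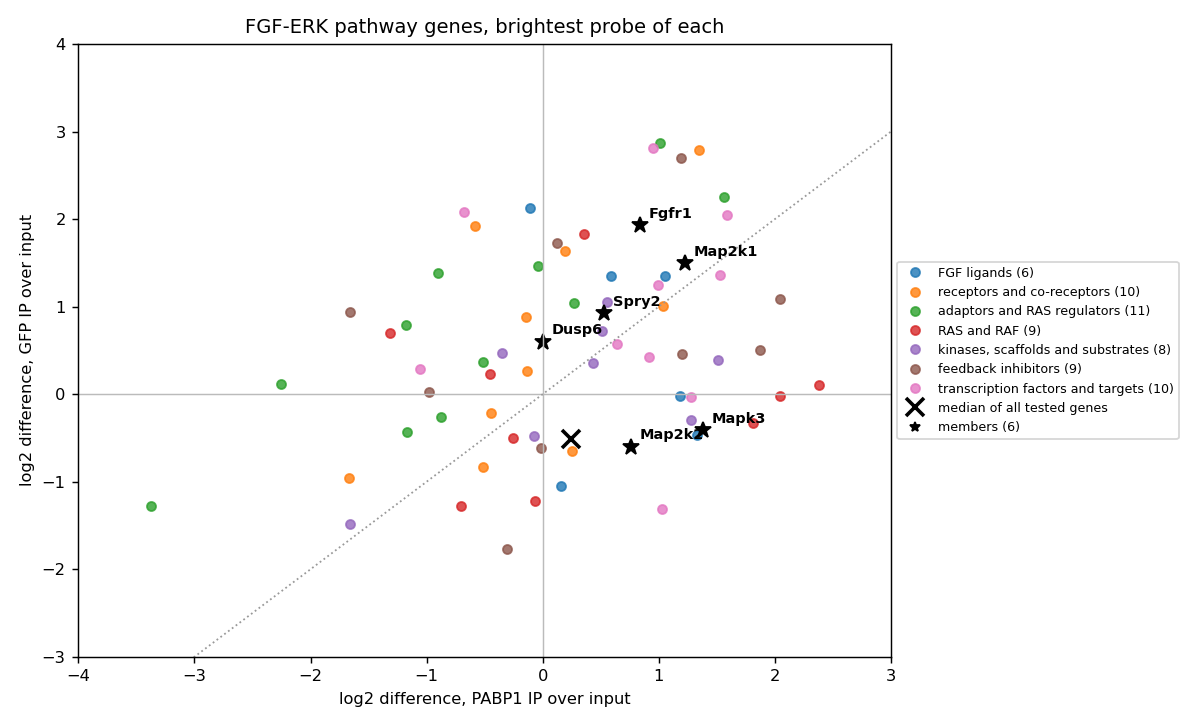
Log2 difference of the GFP IP over input (y axis) against that of the PABP1 IP over input (x axis), which share the input arrays, for the brightest probe of 63 pathway genes coloured by role and of 6 members (stars); the cross marks the medians of all tested genes, 0.24 and −0.51, and the dotted line equal values. Fgfr1 and Map2k1 lie at the upper right, Map2k2 and Mapk3 lower right, and the adaptors and RAS regulators lie above the dotted line.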

How the data were processed

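RNA from 3 inputs, 2 PABP1 IPs and 3 GFP IPs was hybridised to 8 one-colour (Cy3) Agilent arrays of design 014868. The authors' intensity values came, per the file headers, from Feature Extraction 9.1.3.1, which had subtracted background; its flags for outlier, saturated and well-above-background spots are other deposited values. The processed intensity was taken to log2, the 75th percentile over 43379 probe spots was subtracted, and spots were averaged; outlier spots removed 32 probes. A probe with several spots was well above background where over 50% of its spots were. Differences were tested over 20622 probes with limma 3.58.1 in R 4.3.3 (5 residual and 2.17 prior degrees of freedom, two-sided, Benjamini-Hochberg, threshold 0.05), with the data.table package (version 1.17.8), and were tested on simulated data. Figures used matplotlib 3.10.9 in Python 3.11.15. Named pathway genes were, in each role, the called gene with the largest difference in each direction. A gene this rule names is not reported here. Members and lists were chosen with earlier results of these data known. The number of arrays limits the precision. Alternatives were other background corrections, scalings, filters, slide and replicate blocks, array weights and omitted arrays; centring the log ratios was chosen after seeing the data. Group mean intensities deposited by the authors served as an alternative without a test.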

Additional observations from a re-analysis of the deposited data

How the results depend on the processing

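Among single-probe values over all alternatives, 605 kept direction and call, 39 lost a call, 40 gained one and 15 changed sign. Counts are given below as probes higher and lower in the GFP IP over input (mainly 5 and 1), the PABP1 IP over input (7 and 1) and the GFP IP over the PABP1 IP (4 and 3), then as pairs of probes of 1 gene that differed (2, 2 and 0). Normexp background correction gave 2 and 0, 2 and 0, 0 and 3, and 0 pairs in each; it ended the calls of Map2k1 against input (adjusted p = 0.079 for the GFP IP and 0.078 for the PABP1 IP), of Map2k2 against input, of Spry2, of all Fgfr1 probes between the IPs and for the PABP1 IP over input, and of the third Fgfr1 probe for the GFP IP over input. It left those of the 2 brighter Fgfr1 probes in the GFP IP over input (1.00 and 0.95), of Mapk3, and of Map2k2 between the IPs (−1.75), and turned Map2k1 between the IPs to −0.064. Counts of lower probes in the GFP IP over input were 0 with scaling to the median of all spots, quantile normalization, log ratios centred on their median (chosen after seeing the data), no filter or slide 2 alone, 3 with the slide block and 4 with array weights, a fit that stopped short of convergence. Higher probes between the IPs were 7 with the percentile of detected spots and 7 with centred log ratios. Higher probes in the PABP1 IP over input were 4 within slide 2, and lower ones 0 within slide 1 and with the all-array filter, which drops the fourth Fgfr1 probe, and 2 with array weights. Pairs that differed became 1, 1 and 0 with the all-array filter, 0, 1 and 1 within slide 1, and, between the IPs, 1 with quantile normalization, 2 with the slide block and 1 with array weights. The 2 with the slide block include the fourth Fgfr1 probe, whose value between the IPs is a description only. With 1 value per gene, the brightest probe gave 3 and 1, 5 and 0, 1 and 2, and the mean of probes 2 and 1, 3 and 0, 1 and 2.

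Leaving out 1 array gave 5 to 6 higher and 0 to 3 lower, 4 to 7 and 0 to 1, and 4 to 5 and 3 to 4; a lone PABP1 array is then assumed to vary like the other groups. Pairs were 2 to 3, 2 and 0 to 1. The values that changed sign were Mapk3 in the GFP IP over input at 0.12 and 0.10 with median scaling, Map2k2 there at 0.018 in the authors' deposited table, the second Spry2 probe in the PABP1 IP over input at −0.43 without PABP1 IP replicate 1 (up to 2.43 without other arrays), and Dusp6 in that comparison, which was 0.00 and became −0.24 with the percentile of detected spots, −0.031 with quantile normalization, −0.22 with centred log ratios, −0.0041 with arrays centred on tested probes, −0.10 with the slide block, −0.081 and −0.10 within slides 1 and 2, −0.085 and −0.098 without input replicates 1 and 2, and −0.27 without PABP1 IP replicate 2, against up to 0.27 without other arrays. Where no cause is named it was not tested.

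The labels number the replicates, and same-numbered arrays of different groups correlated at −0.71 to 0.57 in their deviations from the group means. The sign followed the slide, whatever the number. Arrays of different groups correlated at 0.42 to 0.74 on the same slide and at −0.74 to −0.24 on different slides. The check thus cannot tell whether the numbers pair the arrays. It shows a slide effect across the tested probes, and the main fit had no slide term. A replicate block gave 5 and 1, 7 and 1, and 5 and 3 probes and 2, 2 and 0 pairs, and added a call for the brighter Spry2 probe between the IPs (0.45, adjusted p = 0.040).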
